A study of Mus musculus with 2 samples.

Results

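The cells described here are splenic neutrophils in division, picked from droplet single-cell libraries of sorted CD11b+ Gr1+ spleen cells. A cell was taken when S100a8 and S100a9 made up at least 10% of its unique molecular identifiers (UMIs, each standing for 1 captured transcript), Cd79a and Cd79b summed to under 2 UMIs, the monocyte genes Csf1r, Ccr2, Ace and Adgre4 to under 3, and the primary granule genes Mpo, Elane, Prtn3 and Ctsg to under 0.1% of UMIs. It also had to hold at least 3 UMIs over 6 cell cycle genes, Mki67, Top2a, Birc5, Cdk1, Ccna2 and Ube2c. That gave 545 cycling cells of 14646 in all, 252 of 9155 in PyMT and 293 of 5491 in wild type (WT). They were set against the cells that passed the same gates with 0 UMIs of the 6 genes, 4589 in PyMT and 3056 in WT, called non-cycling here. Another 420 PyMT and 216 WT cells held 1 or 2 such UMIs and entered neither class.

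PyMT is 1 library of sorted cells pooled from the spleens of 3 tumour-bearing mice. Mice of that name carry the polyomavirus middle T oncogene, which is usually driven in mammary epithelium; the strain label reads PYMT, and neither promoter nor age is given in the sources used here. WT is 1 library pooled from 5 control mice of strain FVB/n. All cells were sorted from spleen on CD11b and Gr1, which neutrophils and many monocytes carry, after red cell lysis. With 1 library per group, no test between groups was possible and no p-value was computed. Intervals are 95% and cover counting error only, neither mice nor libraries.

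Neutrophils are made in bone marrow, and also in the spleen when demand is high. Dividing precursors first make the proteases of the primary granules, then the antimicrobial proteins of the secondary granules. Division stops before the gelatinase granules and the receptors of the mature cell appear. All 6 given markers were detected in the cycling cells. Mki67 and Top2a belong to the gate. Stmn1, which encodes the microtubule regulator stathmin, was at 409 CPM (the share of a class's summed UMIs, scaled to a common total) in cycling against 5.71 CPM in non-cycling PyMT cells, and at 629 against 8.50 CPM in WT. The secondary granule genes Camp, at 43813.5 CPM in PyMT and 71518 CPM in WT cycling cells, and Ngp, at 54163 and 52694 CPM, were among the most abundant transcripts. In non-cycling cells Camp was at 30192 CPM in PyMT and 70910 CPM in WT, and Ngp at 39301 and 51386 CPM. Neither gene thus set the cycling cells apart in WT, and in PyMT both were higher by under 1.5-fold. Fcnb, which encodes the lectin ficolin B, was at 298 CPM in PyMT and 361 CPM in WT cycling cells, against 58.2 and 72.1 CPM in non-cycling cells. Genes of early progenitors were low or absent: Cd34 had 0 UMIs in the cycling cells of both libraries, and the 12 early progenitor markers summed to 8.48 CPM in PyMT and 17.5 CPM in WT. Some genes of the primary granules and of late neutrophils were present, as given below.

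Markers of most other lineages were few, with exceptions in single cells. Natural killer cell markers summed to 59.8 CPM in cycling and 5.40 CPM in non-cycling PyMT cells, and to 33.8 and 14.1 CPM in WT. At least 2 UMIs of them were in 9.13% of cycling and 0.218% of non-cycling PyMT cells, and in 9.56% and 0.393% in WT. Nkg7, which is also on the primary granule list, had 124 UMIs in 63 PyMT and 136 in 74 WT cycling cells. The 12 B cell markers summed to 179 CPM in cycling and 270 CPM in non-cycling PyMT cells, and to 261 and 259 CPM in WT, against 39039 and 30374 CPM in PyMT and WT cells gated as B cells. All 12 had UMIs in the cycling cells of both libraries. The 16 monocyte and macrophage markers summed to 1419 CPM in cycling and 1627 CPM in non-cycling PyMT cells, and to 1117 and 1636 CPM in WT, with C1qb at 0 in the cycling cells of both. Ly6c2 alone held 5519 of their 5856 UMIs in PyMT cycling cells and 4380 of 4727 in WT ones. At least 20 UMIs of B, T, natural killer, dendritic, erythroid, megakaryocyte or eosinophil, basophil and mast cell markers were found in 3 PyMT and 5 WT cycling cells. One of these PyMT cells held 143 UMIs of natural killer cell markers and one WT cell held 266 of B cell markers. Among cells most like simulated doublets were 3.97% of cycling and 3.49% of non-cycling PyMT cells, and 1.02% and 1.51% in WT. The part of these cells in the results was not tested beyond leaving them out. The libraries held 73435307 UMIs in PyMT and 42542700 in WT and shared 72 barcodes.

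Cycling cells were deeper than non-cycling cells in both libraries. The median was 15871.5 UMIs in cycling and 7485 in non-cycling PyMT cells, and 12694 and 5167 in WT. After each cell was thinned to 2500 UMIs, cycling cells still held more genes, with medians of 709 against 639 in PyMT and 776 against 639 in WT. Ribosomal protein genes took a median of 4.68% of UMIs in cycling and 2.89% in non-cycling PyMT cells, and 4.80% and 3.08% in WT. Since 3 UMIs are reached more easily in a deep cell, the gate itself favours depth.

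Cell cycle genes are switched on in waves. E2F sites are known from promoters of the S phase genes, which copy DNA, while the cell cycle homology region (CHR) beside CCAAT boxes is known from those of the G2/M genes, which drive mitosis. C/EBP factors act on granule genes. A promoter of each kind is shown, 250 bases before to 50 after the RefSeq start on GRCm38.p6, with matches in capitals. For Ccnb2, a mitotic cyclin gene (chr9:70421505-70421804, minus strand), capitals mark CHR (TTTGAA) and CCAAT. For Mcm5, a subunit gene of the replicative helicase (chr8:75109259-75109558, plus strand), they mark the overlapping E2F matches TTTCGCGC and TTTGGCGC. For Ngp (chr9:110419558-110419857, plus strand) and Fcnb (chr2:28084829-28085128, minus strand), they mark C/EBP (TTGCNNAA). All were searched on both strands.
Ccnb2: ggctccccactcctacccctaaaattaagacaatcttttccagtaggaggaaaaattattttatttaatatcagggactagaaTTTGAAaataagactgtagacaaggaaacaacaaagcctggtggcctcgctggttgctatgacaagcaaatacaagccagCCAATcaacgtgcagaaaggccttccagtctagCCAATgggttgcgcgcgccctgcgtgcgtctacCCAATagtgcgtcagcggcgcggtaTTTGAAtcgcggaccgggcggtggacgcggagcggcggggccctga
Mcm5: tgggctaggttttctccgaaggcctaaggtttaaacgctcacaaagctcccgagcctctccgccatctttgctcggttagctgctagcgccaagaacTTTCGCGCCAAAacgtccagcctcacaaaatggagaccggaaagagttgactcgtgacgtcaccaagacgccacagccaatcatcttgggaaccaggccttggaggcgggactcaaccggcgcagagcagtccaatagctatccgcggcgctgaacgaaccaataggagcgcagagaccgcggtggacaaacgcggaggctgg
Ngp: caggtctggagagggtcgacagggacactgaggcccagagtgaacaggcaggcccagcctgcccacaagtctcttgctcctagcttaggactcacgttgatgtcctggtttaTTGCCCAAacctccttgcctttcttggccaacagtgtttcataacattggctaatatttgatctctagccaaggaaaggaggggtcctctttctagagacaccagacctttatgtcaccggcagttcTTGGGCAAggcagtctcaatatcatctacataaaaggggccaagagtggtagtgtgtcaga
Fcnb: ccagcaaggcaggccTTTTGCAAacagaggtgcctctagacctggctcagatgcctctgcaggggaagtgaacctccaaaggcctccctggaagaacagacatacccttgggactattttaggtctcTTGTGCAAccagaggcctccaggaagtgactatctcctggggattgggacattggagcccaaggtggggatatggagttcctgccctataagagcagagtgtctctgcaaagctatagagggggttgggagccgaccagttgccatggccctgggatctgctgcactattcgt

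CHR was present in 25 of 35 matched G2/M promoters (71.4%), as in Ccnb2, against 18.1% of all 27025 promoters and 4 of 29 S phase promoters. CCAAT was in 28 of 35 G2/M promoters (80.0%) against 37.9% of all, and in 17 of 29 S phase promoters. The E2F sequence TTTCGCGC was in 4 of 29 S phase promoters (13.8%), Mcm5 among them, against 0.318% of all. TTTGGCGC was in 5 of 29 (17.2%) against 0.537% of all, and neither was in any of the 35 G2/M windows. C/EBP matches were in 5 of 16 secondary granule promoters against 10.8% of all, and in 3 of 20 mature neutrophil promoters. Such matches describe letters in a window and show no binding.

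The first question was what share of the gated neutrophils was in division in each spleen. Cycling cells were 4.79% of 5261 gated PyMT cells (exact Clopper-Pearson interval 4.23 to 5.40%) and 8.22% of 3565 gated WT cells (7.34 to 9.17%). Both the sort and the gates set these shares in part. PyMT cells were deeper, which favours passing the gate, and after thinning before all gates the shares were 1.89% in PyMT and 4.71% in WT. The monocyte gate alone removed 27 otherwise cycling PyMT cells and 102 WT cells, and without it the shares were 5.11% and 10.02%. The PyMT share was the lower one in each of the 12 other settings tried. That did not hold among cells with Camp at 3% of UMIs or more, a level chosen after the data were seen. There 239 cycling cells stood beside 1821 non-cycling cells in PyMT, and 292 beside 2855 in WT. By these counts cycling cells were more frequent in PyMT. The median Camp level of all non-cycling cells was 2.03% of UMIs in PyMT and 7.18% in WT. The part of that difference in the shares was not tested.

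Within the members, the strength of the cycle signal differed. The 6 gate genes, which chose the cells, had a median of 8 UMIs per cell in PyMT (range 3 to 67) and 14 in WT (3 to 64). All 6 were detected in 65 of 252 PyMT cells (25.8%) and in 117 of 293 WT cells (39.9%). Mki67, the proliferation antigen gene, was at 101 CPM in PyMT and 169 CPM in WT cycling cells. Top2a, a topoisomerase gene, was at 115 and 216 CPM, and Cdk1, the mitotic kinase gene, at 70.3 and 121 CPM. The survivin gene Birc5 was at 271 and 274 CPM, the cyclin gene Ccna2 at 117 and 120.5 CPM and the ubiquitin enzyme gene Ube2c at 199 and 227 CPM.

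Other genes moved with the number of cycle UMIs also inside the gate. Just outside the limit, the 70 PyMT and 31 WT cells with 2 cycle UMIs had Stmn1 at 101 and 181 CPM. Just inside it, the 80 PyMT and 51 WT cells with 3 to 5 had 145 and 321 CPM. At 11 to 20 cycle UMIs Stmn1 was at 480.3 CPM in PyMT and 769 CPM in WT, and over 20 it was at 688 and 681 CPM, so the top bin was not the highest in WT. Retnlg, a resistin-like gene of late neutrophils, went the other way, from 4463 CPM at 3 to 5 cycle UMIs to 1836 CPM over 20 in PyMT, and from 1927 to 1001 CPM in WT. Mmp8, the neutrophil collagenase gene, was at 212 and 83.9 CPM in those bins in PyMT, and at 322 and 123 CPM in WT. Camp was nearly level over the members, between 42976 and 45962.5 CPM in PyMT and between 68827 and 73220 CPM in WT (bins of 3 or more).

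**Figure D1:**
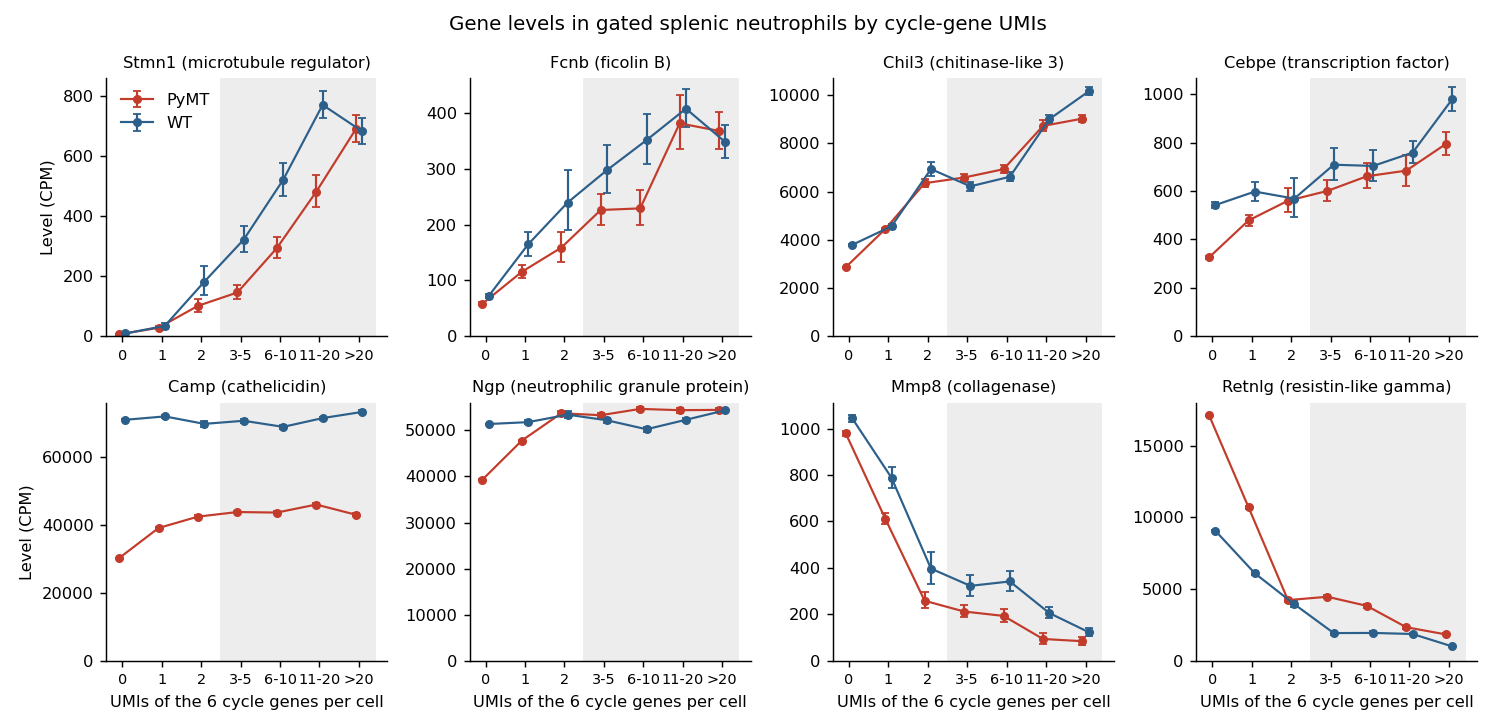
Level in CPM of 8 genes against the number of UMIs of the 6 cycle genes per cell, in PyMT (red) and WT (blue); points are sums over the cells of a bin, bars are exact Poisson intervals and the grey area holds the cycling cells. In every bin of the grey area Stmn1, Fcnb, Chil3 and Cebpe are higher and Mmp8 and Retnlg lower than at 0 cycle UMIs; in WT Stmn1 is highest at 11 to 20 cycle UMIs, at 769 CPM.

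Cycling cells were compared with non-cycling cells of the same library to describe their stage. Genes were tested when the mean of both classes reached 20 CPM, and called higher or lower at 1.5-fold or more by the point estimate. In PyMT, 823 of 2857 genes (28.8%) were higher and 424 (14.8%) lower; in WT, 1003 of 3158 (31.8%) were higher and 291 (9.21%) lower. The cells were chosen on cycle genes, so the counts below describe them. The split depends on the scaling: the median of all genes lay at 0.15 (log2) in PyMT and 0.25 in WT, and at -0.27 and -0.22 when scaled by a trimmed mean of M-values, which called 394 higher and 885 lower in PyMT and 474 and 877 in WT. Of 2663 genes tested in both libraries, 661 were higher in both, which is 82.2% of the PyMT and 84.9% of the WT calls, and 197 were lower in both, 61.4% and 77.6%.

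Outside the 6 gate genes, the highest genes in both libraries were those of chromosome segregation and DNA synthesis. Fbxo5, an inhibitor of the anaphase-promoting complex, was at 52.8 CPM in cycling against 0.167 CPM in non-cycling PyMT cells and at 93.5 against 0.394 CPM in WT. Rrm2, a subunit gene of ribonucleotide reductase, which makes the building blocks of DNA, was at 156 against 1.25 CPM in PyMT and at 217 against 2.14 CPM in WT. Nusap1, Spc25, Ska1, Cdca8, Tpx2 and Cdca3, genes of the spindle and kinetochore, the histone chaperone gene Asf1b and Stmn1 completed the 10 highest, and the log2 ratios of these 8 lay between 6.16 and 7.28 in PyMT and 6.21 and 7.31 in WT. Outside the cycle lists, the replication genes Dbf4 and Tipin, the kinetochore gene Spc24, the CDK inhibitor gene Cdkn2c, the histone chaperone gene Anp32e, and Lockd and Ccdc34 followed, with log2 ratios from 3.83 to 5.89 over both libraries.

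Of the 36 listed S phase genes 9 in PyMT and 15 in WT reached the minimum level, and all of these were higher, as were the 22 of 40 listed G2/M genes that reached it in each library. Most are near 0 in non-cycling cells, so they passed the minimum through the class where they are high and had to differ. All 4 of 20 nucleotide synthesis genes at that level were higher in both. Of these, Rrm2, Tyms and Rrm1 also stand on the S phase list, so the lists overlap. Of 16 chromatin and tubulin genes, 15 were higher in PyMT and 16 in WT. The exception was Lmnb1, a nuclear lamina gene, at 125 CPM in cycling against 105 CPM in non-cycling PyMT cells, while it was at 141 against 28.9 CPM in WT. Of 18 listed ribosome biogenesis genes few reached the minimum level, and of these 4 of 4 in PyMT and 5 of 5 in WT were higher. Among them was the nucleolar gene Npm1, at 92.8 against 33.8 CPM and 152 against 45.4 CPM. With the trimmed mean of M-values those counts were 2 of 4 and 5 of 5. Nuclear genes of oxidative phosphorylation were higher for 14 of 26 in PyMT and 12 of 26 in WT with none lower, for instance Cycs, the cytochrome c gene, at 101 against 39.4 CPM and 144 against 64.5 CPM. The trimmed mean of M-values gave 7 in PyMT, and 4 in WT with 1 lower.

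The granule genes split by stage. Among the 17 tested for the secondary granules, 2 were higher and 1 was lower in each library, and the list's median log2 ratio was 0.09 in PyMT and -0.22 in WT; that sign turned in PyMT under the other 3 scalings, to between -0.32 and -0.08. Chil3, a chitinase-like protein gene, was at 7800.1 CPM in cycling against 2859 CPM in non-cycling PyMT cells and at 8603 against 3785 CPM in WT. Fcnb had log2 ratios of 2.36 (2.25 to 2.46) in PyMT and 2.32 (2.22 to 2.43) in WT. The lower one was Ceacam10, a cell adhesion gene, at 234 against 524 CPM in PyMT and 69.9 against 199 CPM in WT. Ltf, the lactoferrin gene, and Lcn2, the lipocalin gene, chosen after their values were seen, were both under 1.5-fold, at 9637 against 8967 CPM and 18603 against 16275 CPM in PyMT, and at 9770.2 against 12744 CPM and 15776 against 18889 CPM in WT. Single cells varied, with Camp at 1.39% of UMIs in the lowest, 4.38% in the median and 7.80% in the highest PyMT member, and at 1.02%, 7.15% and 12.1% in WT. After thinning, a UMI of Fcnb was found in 42.9% of cycling and 7.08% of non-cycling PyMT cells and 51.9% and 9.72% in WT, against 0.373% and 0.298% of PyMT and WT B cells.

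Of the primary granule list, which holds the 4 gate genes, 4 of 8 were higher and 2 lower in PyMT, and 2 of 6 were higher and 1 lower in WT. Ms4a3, a membrane protein gene of granulocyte progenitors, was at 163 CPM in cycling against 19.6 CPM in non-cycling PyMT cells and at 142 against 14.7 CPM in WT. Srgn, the gene of the granule proteoglycan serglycin, was the lower one in both, at 118 against 436 CPM in PyMT and 22.9 against 41.2 CPM in WT; its log2 ratio turned to 0.26 in PyMT against non-cycling cells with high Camp, and to 0.23 in WT without the primary granule gate. Ctsc, a protease gene chosen after its values were seen, was the other in PyMT, at 15.3 against 26.6 CPM. Of the granulopoiesis transcription factor genes, 1 of 14 was higher and 7 lower in PyMT, and 4 of 15 were higher and 3 lower in WT, where the trimmed mean of M-values gave 1 higher and 7 lower of 14. Against non-cycling cells with high Camp, 1 of 14 was higher and 2 lower in PyMT, and 3 of 15 were higher and 2 lower in WT. Against all non-cycling cells Junb, of the AP-1 family, was lower in both libraries, at 269 against 826 CPM in PyMT and 140.3 against 249 CPM in WT. Cebpe, the transcription factor gene of the secondary granule programme, was at 691 against 325 CPM in PyMT and 821 against 542 CPM in WT; in WT its log2 ratio was 0.14 with the trimmed mean of M-values, under 1.5-fold. The cycling cells kept out by the primary granule limit, 17 in PyMT and 18 in WT, had more Fcnb, at 667 and 899 CPM, and more Ms4a3, at 620 and 577 CPM, than the members. They had less Ngp, at 38426 and 33885 CPM. Elane, the elastase gene and one of those that kept them out, was at 10.4 CPM in PyMT and 12.3 CPM in WT members, against 2227 and 2639 CPM in the cells kept out.

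Genes of later stages were lower in the cycling cells. Of the gelatinase granule and late genes, 7 of 11 were lower and 1 was higher in PyMT, and 7 of 10 were lower with none higher in WT. Retnlg was at 3121 CPM in cycling against 17129 CPM in non-cycling PyMT cells and at 1578 against 9067 CPM in WT. Mmp8 was at 147 against 979 CPM and 216 against 1045 CPM, and Mmp9, the gelatinase gene, at 240.1 against 762 CPM and 239 against 987 CPM. Ly6g, which encodes an antigen of the Gr1 antibody, was at 392 against 936 CPM in PyMT and 552 against 1359 CPM in WT. The higher one in PyMT was Clec5a, a lectin receptor gene chosen after its values were seen, at 163 against 103 CPM. Of the mature neutrophil genes, 19 of 22 were lower in PyMT and 15 of 18 in WT, with none higher. They include the formyl peptide receptor gene Fpr1, at 32.7 against 139.6 CPM and 15.4 against 80.5 CPM, and the chemokine receptor gene Cxcr2, at 155 against 418 CPM and 46.1 against 144 CPM. Csf3r, the receptor gene for the growth factor G-CSF, was at 106 against 292 CPM in PyMT and 64.5 against 105 CPM in WT. The other genes among the 10 lowest in both, Tpm4, Timp2, Bst1, Gdpd3, Cyp4f18 and Acvrl1, had log2 ratios between -2.19 and -1.72.

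Other groups moved in part. Of the genes for protein folding in the endoplasmic reticulum, 7 of 14 were higher in PyMT and 6 of 13 in WT, with none lower; under the trimmed mean of M-values 2 were higher in each. Manf, a secreted folding factor gene, was at 87.2 CPM in cycling against 35.1 CPM in non-cycling PyMT cells and at 77.9 against 27.4 CPM in WT. Glycolysis genes were mostly under 1.5-fold, with 1 higher and 2 lower of 14 in PyMT and 1 higher and 1 lower of 14 in WT. Interferon response genes were lower for 7 of 9 in PyMT and 3 of 4 in WT, with none higher. Growth factor and cytokine receptor genes were lower for 5 of 9 in PyMT and 2 of 7 in WT, and for 9 of 9 and 4 of 7 with the trimmed mean of M-values. Against the non-cycling cells with high Camp described next, 0 of 8 were lower in PyMT and 2 of 7 in WT.

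**Figure D2:**
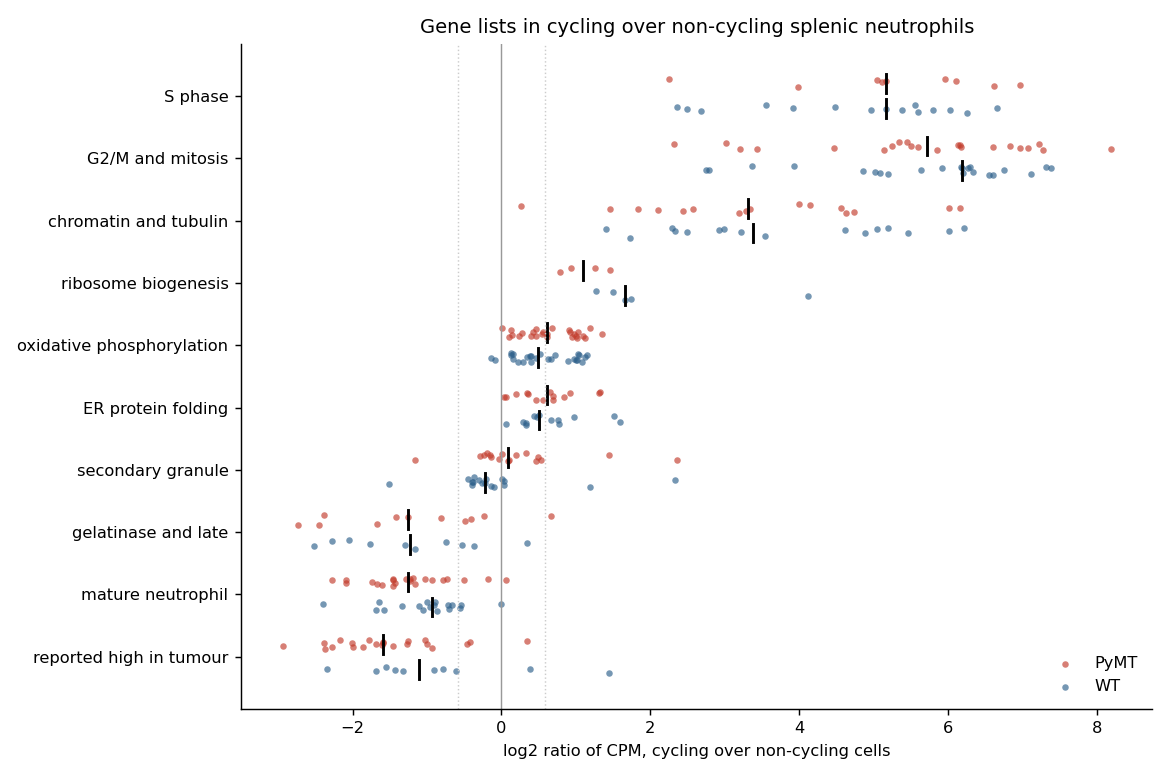
Log2 ratio of CPM, cycling over non-cycling cells, for the members of 10 gene lists that reached 20 CPM; each point is a gene, black bars are list medians, PyMT (red) lies above WT (blue) and dotted lines mark 1.5-fold. Cycle lists lie to the right, secondary granule genes around 0 with medians of 0.09 and -0.22, and gelatinase, mature and tumour-reported genes to the left.

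Non-cycling cells were not one kind of neutrophil in PyMT. Their Camp level had a median of 2.03% of UMIs, with 5% of cells under 0.0867%, whereas in WT the median was 7.18%. A comparison added after the data were seen kept the non-cycling cells with Camp at 3% of UMIs or more, which were 1821 in PyMT and 2855 in WT. Of the cycling cells, 239 of 252 in PyMT and 292 of 293 in WT passed that level. Against these cells Camp had a log2 ratio of -0.07 in PyMT and -0.04 in WT. Fcnb was still higher, at 298 against 102 CPM in PyMT and 361 against 75.4 CPM in WT, and so was Chil3, at 7800.1 against 4424 CPM and 8603 against 3936 CPM. Mature neutrophil genes were lower for 3 of 19 in PyMT, with a median of -0.36, and for 15 of 18 in WT, with a median of -0.82. Against all non-cycling PyMT cells the count had been 19 of 22. Cxcr2 was then at 155 against 192 CPM in PyMT and Csf3r at 106 against 119 CPM. Gelatinase and late genes were lower for 7 of 11 in PyMT and 7 of 10 in WT, with Mmp8 at 147 against 623 CPM and 216 against 1001 CPM. Over all genes, 707 of 2800 were higher and 135 lower in PyMT, and 999 of 3151 higher and 264 lower in WT.

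To ask how division differed between the spleens, S phase and G2/M transcripts were set against each other in each member. The summed S phase list stood at 1124 CPM in PyMT and 1783 CPM in WT cycling cells, while the G2/M list stood at 3003 and 3052 CPM. The ratio of S phase to G2/M UMIs, which no scaling of the libraries alters, was 0.374 in PyMT and 0.584 in WT. The median member held 3 S phase and 40 G2/M UMIs in PyMT, and 23 and 40 in WT. Under 3 S phase but at least 3 G2/M UMIs were found in 109 of 252 PyMT cells (43.3%, interval 37.1 to 49.6%) and 46 of 293 WT cells (15.7%, 11.7 to 20.4%). The reverse, at least 3 S phase with under 3 G2/M UMIs, was seen in 0 members of either library. Among non-cycling cells it was seen in 114 of 4589 in PyMT (2.48%) and 67 of 3056 in WT (2.19%). The gate genes themselves are known to peak in G2 and mitosis. PyMT members were the deeper ones, with the medians given above. After thinning, an S phase UMI was found in 53.6% of PyMT and 82.9% of WT members, and a G2/M UMI in 96.0% and 98.3%. In non-cycling cells the shares were 16.1% and 20.5% for S phase, and 29.4% and 29.8% for G2/M. Before thinning, 514 of 4589 non-cycling PyMT cells (11.2%) and 248 of 3056 WT ones (8.12%) held at least 3 G2/M UMIs. That class is thus not free of cycle transcripts.

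The gap was not the same along the cycle signal. At 3 to 5 cycle UMIs the S phase to G2/M ratio was 0.282 in PyMT and 0.850 in WT, at 6 to 10 it was 0.261 and 0.968, and at 11 to 20 it was 0.419 and 0.684. Over 20 it was 0.430 in 68 PyMT cells and 0.390 in 83 WT cells, so the PyMT value was not the lower one there. The share of cells under 3 S phase UMIs was 73.8% in PyMT and 45.1% in WT at 3 to 5 cycle UMIs, and 5.88% and 3.61% over 20.

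**Figure D3:**
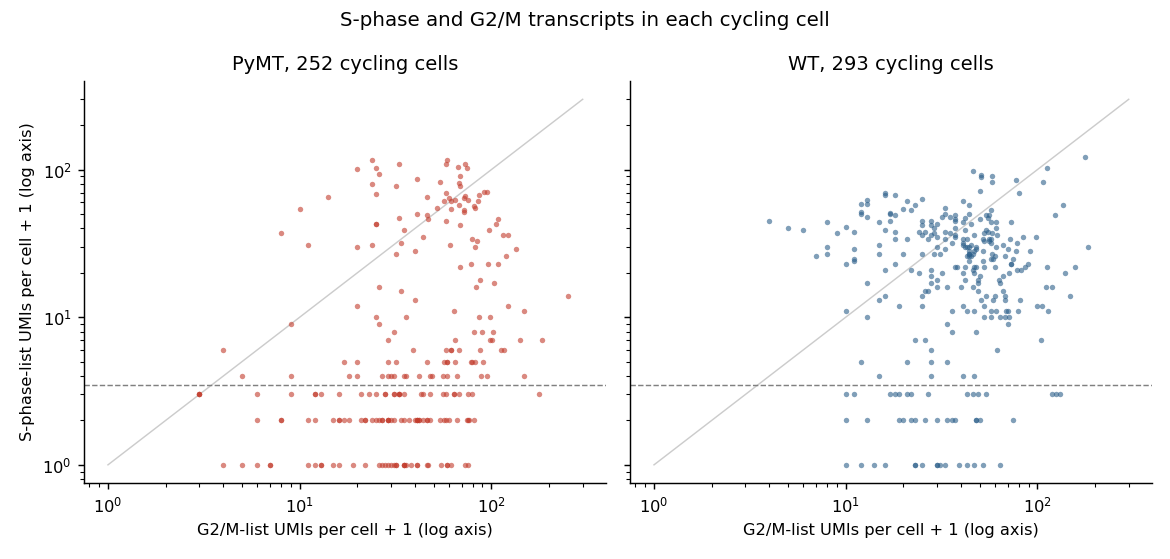
S phase UMIs against G2/M UMIs (both plus 1, log axes) in each of the 252 PyMT and 293 WT cycling cells; the dashed line marks 3 S phase UMIs and the grey diagonal equal counts. In PyMT 109 cells lie under the dashed line with at least 3 G2/M UMIs, against 46 in WT.

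Gene by gene, PyMT cycling cells were compared with WT cycling cells. Of 3268 genes, 187 (5.72%) were higher and 589 (18.0%) lower in PyMT, with a median of all genes of -0.17; a trimmed mean of M-values moved that median to 0.12 and called 457 higher and 180 lower. On the S phase list 15 of 24 (62.5%) were lower and 0 were higher, and the list's median was -0.68, which is 0.51 below that of all genes; with the other scaling 6 of 25 were lower and 0 higher. Over the alternatives run the S phase median lay between -0.96 and -0.34. Dut, which keeps uracil out of DNA, was at 82.9 CPM in PyMT and 199 CPM in WT, a log2 ratio of -1.27 (-1.45 to -1.08). Mcm5, chosen for its promoter, was at 48.9 and 75.6 CPM. Chaf1a, a chromatin assembly gene, Uhrf1, which maintains DNA methylation, and E2f1, the transcription factor gene, had log2 ratios of -1.35, -1.09 and -1.18. Dtl, a replication licensing gene, was at 8.00 and 32.8 CPM, and Lrr1, a replisome gene, at 14.1 and 43.9 CPM.

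On the G2/M list 4 of 36 were higher and 5 were lower, and the list's median was -0.08, which is 0.09 above that of all genes. The sign of that median turned with the scaling, to 0.20 with the trimmed mean of M-values, under which 9 were higher and 1 lower. The 4 higher genes were Ccnb1, the cyclin B1 gene, at 66.6 CPM in PyMT and 36.1 CPM in WT, Cdkn3, a phosphatase gene, at 124 and 73.0 CPM, Pttg1, the securin gene, at 162 and 103 CPM, and the centromere gene Cenpa at 252 and 164 CPM. Cdc20, which starts anaphase, was at 165 and 110.3 CPM, and Ccnb2, shown above, at 175 and 118 CPM, both just under 1.5-fold. Cdkn3, Pttg1, Cenpa, Cdc20 and Ccnb2 were chosen after their values were seen. The 5 lower genes were Pbk, Kif11, Spc25, Aurkb and Smc4, with log2 ratios between -1.06 and -0.66, the last 2 also named after their values were seen. On the chromatin and tubulin list 7 of 16 were lower and 0 higher, and 2 were lower with the trimmed mean of M-values. The tubulin genes Tuba1b, at 467 CPM in PyMT and 907 CPM in WT, and Tubb5, at 338 and 648 CPM, were among the 7. Of 7 replication-dependent histone genes, 5 were lower and 1 higher; Hist1h2ap was at 245 CPM in PyMT and 409 CPM in WT, Hist1h2ak at 84.8 and 212 CPM and Hist1h2ae at 21.6 and 60.9 CPM. Histone copies are near-identical and mostly lack poly(A) tails, so their split between genes is uncertain. Of 5 ribosome biogenesis genes, 3 were lower, among them Pa2g4 at 22.5 and 53.6 CPM and Npm1 at 92.8 and 152 CPM, and with the trimmed mean of M-values 1 was.

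On the secondary granule list 3 of 17 were higher and 1 was lower in PyMT, and the list's median was 0.04. Ceacam10 was at 234 CPM in PyMT and 69.9 CPM in WT, while Camp was the lower one, with a log2 ratio of -0.71 (-0.72 to -0.70), and Ngp had one of 0.04. Fcnb, Chil3 and Cebpe had log2 ratios of -0.28, -0.14 and -0.25. On the mature neutrophil list 11 of 18 were higher and 0 were lower, against 5.72% of all genes higher, and the list's median was 0.82. Il1b and Clec4e, both among the 11, also stand on the list of genes reported high in tumour spleen, so the lists overlap. Between non-cycling cells, where 12.6% of all genes were higher and 12.9% lower, 16 of 22 were higher and 1 was lower, and the median was 1.01. Cxcr2 was at 155 CPM in PyMT and 46.1 CPM in WT cycling cells, and Retnlg at 3121 and 1578 CPM. Every PyMT member held Retnlg, at 0.0526% of its UMIs or more, while the lowest WT member held 0%. The 10 members with most Retnlg held 28.4% of its UMIs in PyMT and 32.1% in WT. S100a6, a calcium-binding protein gene, was at 2629 and 589 CPM. Of 4 interferon response genes 3 were higher, with Ifitm3, an antiviral membrane protein gene, at 2175 and 628 CPM. The part of free RNA in these levels was not tested. Il1b stood higher in PyMT B cells than in PyMT members, as given below.

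**Figure D4:**
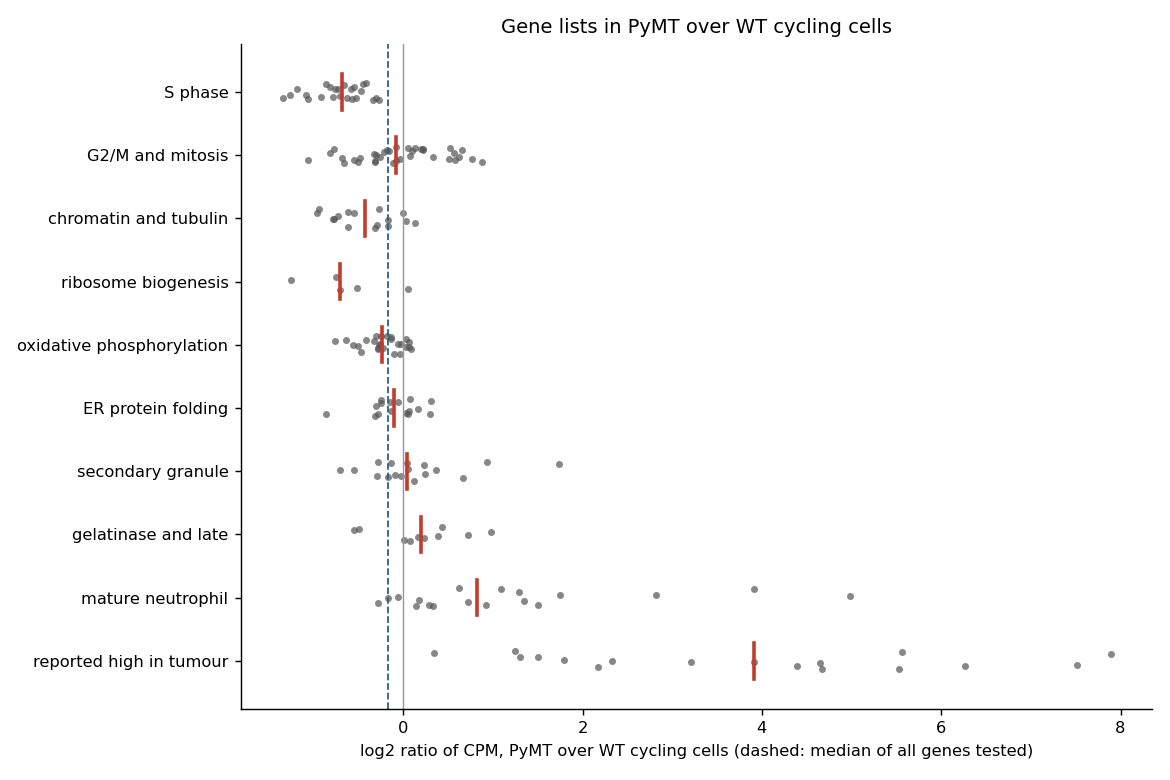
Log2 ratio of CPM, PyMT over WT cycling cells, for the members of 10 gene lists that reached 20 CPM; each point is a gene, red bars are list medians, and the blue dashed line is the median of all genes tested, -0.17. The S phase median lies at -0.68, the G2/M median at -0.08, the mature neutrophil median at 0.82 and that of genes reported high in tumour spleen at 3.91.

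Genes reported high in neutrophils of tumour spleens were also higher in the cycling cells, 16 of 17 tested with a median of 3.91. That list was drawn from accounts of these samples, so its direction is no independent evidence. Cells gated as B cells should lack neutrophil transcripts, and how they came by any was not tested. They serve here as a reference for free RNA. One group lay well above them in PyMT. Stfa2, a stefin A protease inhibitor gene, was at 449 CPM in PyMT cycling cells, 916 CPM in PyMT non-cycling cells and 47.5 CPM in PyMT B cells, against 1.89 CPM in WT cycling cells. Its neighbours in the stefin A family were also higher in PyMT than in WT cycling cells, with Stfa3 at 328 against 7.09 CPM, Stfa2l1 at 1034 against 32.8 CPM and BC100530 at 3848 against 81.7 CPM. In PyMT B cells they stood at 34.3, 113 and 270.4 CPM. These copies are alike in sequence, so how reads were split between them is uncertain. Asprv1, an aspartic protease gene, was at 217 CPM in PyMT and 6.38 CPM in WT cycling cells, with 50.6 CPM in PyMT B cells. Lipg, the endothelial lipase gene, was at 63.7 against 4.02 CPM, with 2.02 CPM in PyMT B cells and 52.7 CPM in PyMT non-cycling cells.

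Another group stood nearer to the B cells by CPM or below them. Wfdc17, a small secreted protein gene, was at 1270.1 CPM in PyMT cycling cells, 6548 CPM in PyMT non-cycling cells and 1073 CPM in PyMT B cells, against 50.8 CPM in WT cycling cells. For Ifitm1, which encodes a membrane protein induced by interferon, the level was 766 CPM in PyMT cycling cells, 3447 CPM in non-cycling cells and 809 CPM in B cells, against 30.0 CPM in WT cycling cells. Il1b, the interleukin 1 beta gene, was at 191 against 12.8 CPM between the cycling cells, and Socs3, a feedback inhibitor gene of cytokine signalling, at 49.4 against 2.36 CPM; PyMT B cells had 339 and 81.1 CPM. Igfbp6, which binds insulin-like growth factors, was at 43.1 CPM in PyMT with 68.6 CPM in B cells, and the single WT UMI leaves its log2 ratio at 7.51 (5.02 to 12.82). The acute-phase gene Saa3 stood at 54.5 CPM in PyMT and 71.5 CPM in B cells, with 0 UMIs in WT cycling cells. Taking 3 counts as the floor of the WT sum, its log2 ratio was at least 6.27. After thinning, a UMI of Wfdc17 was found in 76.2% of PyMT cycling cells and 73.2% of PyMT B cells, and of Ifitm1 in 56.3% and 58.6%. The medians before thinning were 15871.5 and 3484.5 UMIs per cell, and the part of free RNA in these levels was not tested. For Stfa2 they were 28.6% and 9.05%, and for Stmn1 48.8% and 2.33%. Per cell, where cycling cells are the deeper ones, Wfdc17 had 20.8 UMIs per PyMT cycling cell and 4.47 per B cell, and Ifitm1 had 12.5 and 3.37. The beta globin gene Hbb-bs, of the erythroid list, was at 38.8 CPM in PyMT and 3.31 CPM in WT cycling cells, against 948.5 CPM in PyMT B cells. That B cell level is uneven, since 1 PyMT B cell held 7702 of the 10011 UMIs of the erythroid list. After thinning, a UMI of Hbb-bs was found in 6.75% of PyMT cycling cells and 9.98% of PyMT B cells.

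**Figure D5:**
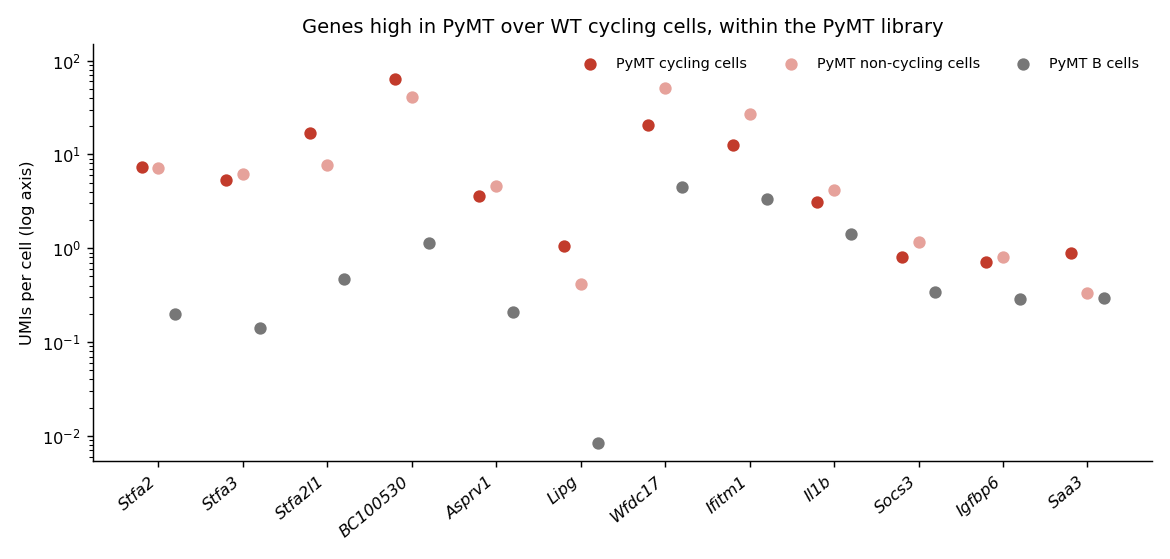
UMIs per cell (log axis) of 12 genes in PyMT cycling cells (red), PyMT non-cycling cells (light red) and PyMT B cells (grey). Stfa2 stands at 7.36 UMIs per cycling cell against 0.198 per B cell and Lipg at 1.04 against 0.0084, while Wfdc17 stands at 20.8 against 4.47 and Saa3 at 0.893 against 0.298.

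Few cells carried some of these levels. In WT, 105 of the 127 Ifitm1 UMIs of the 293 members lay in 1 cell, without which the level was 5.20 CPM, and 186 of 346 BC100530 UMIs lay in 1 cell, without which it was 37.8 CPM. In PyMT, 2 of 252 cells held 104 and 58 of the 225 Saa3 UMIs, and without them Saa3 was at 15.3 CPM. Wfdc17 was spread over 250 PyMT members, and Stfa2 over 148.

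In the other direction, Thbs1, the thrombospondin 1 gene, had 3 UMIs (0.727 CPM) in PyMT and 48.2 CPM in WT cycling cells, a log2 ratio of -6.05 (-8.34 to -4.48). The non-cycling cells differed too, with Thbs1 at 3.56 CPM in PyMT and 189 CPM in WT. Stk39, a stress kinase gene, was at 23.7 CPM in PyMT and 124 CPM in WT, and Tnfsf13b, the gene of the B cell survival factor BAFF, at 17.9 and 77.0 CPM. Ncam1, an adhesion gene, was at 25.4 and 76.8 CPM, and Igfbp4, another binding protein gene for insulin-like growth factors, at 86.5 and 238 CPM. Within the libraries Igfbp4 was also higher in cycling than in non-cycling cells, at 86.5 against 14.97 CPM in PyMT and 238 against 63.2 CPM in WT. Ncam1 was so in WT, at 76.8 against 22.6 CPM, and did not reach 20 CPM in the PyMT comparison. Tmem45a2, the heat shock gene Hspa1a and Irf2bp2 completed the 12 lowest, with log2 ratios between -2.36 and -1.61. Thbs1, Stk39 and Tmem45a2 stand on the list of genes reported high in control spleen neutrophils, so their direction is no independent evidence. Among transcription factor genes, Id1, an inhibitor of differentiation factors, was at 57.9 CPM in PyMT and 123 CPM in WT, and Junb at 269 and 140.3 CPM. Cxcr4, the receptor that retains neutrophils in bone marrow, was at 61.3 CPM in PyMT and 116 CPM in WT cycling cells, against 56.8 CPM in PyMT and 154 CPM in WT non-cycling cells.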

How the data were processed

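CD11b+ Gr1+ spleen cells were loaded on the 10x Genomics Chromium with version 2 3′ reagents, per the labels' protocols, and reads were processed by the authors with Cell Ranger 2.1.0 on mm10, per the submitters' processing notes. The deposited files hold UMI counts per gene and cell, 27998 genes each, with 2502 or more UMIs per PyMT and 2752 or more per WT cell; no source used here gives the reason for that limit. Libraries were grouped by title. Counts per sample are UMIs, and those behind each level are the summed UMIs of a class: 4127362 in PyMT and 4233579 in WT cycling cells, 35929232 and 17764832 in non-cycling cells.

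For each class of cells in each library, UMIs were added up and scaled to CPM, with exact Poisson intervals, exact conditional intervals of ratios and exact Clopper-Pearson intervals of shares, in Python 3.11.15 with numpy 2.4.6 and scipy 1.17.1. A class at 0 UMIs was set to 3 counts in its sum. With 1 library per group no count model was fitted. The calculation was tested on simulated data. B cells are cells with at least 5 UMIs of Cd79a and Cd79b, under 5% S100a8 and S100a9 and 0 cycle UMIs. Doublets stayed in; as an alternative they were left out at a rate set by the cell number (Scrublet in scanpy 1.11.5). Trimmed means of M-values came from edgeR 4.0.16 in R 4.3.3. Further alternatives were scaling by median ratios or by a total that omits the 50 genes with most UMIs, cells weighted equally, thinning to 2500 UMIs, depth-matched non-cycling cells, other gates and other minimum levels.

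The members, the gene lists and the tests were chosen with earlier results of these data known. Genes are named by rule: cycling over non-cycling, the 10 highest and 10 lowest with the same direction in both libraries and the 10 highest outside the cycle lists; PyMT over WT, the 12 highest and 12 lowest, all by the interval bound nearest 0; up to 4 members of each list with the largest ratios; and the markers and gate genes. Other genes are marked as chosen after their values were seen; Ltf, Lcn2, Lmnb1, Mcm5 and Sephs2 are among them. Ribosomal protein, mitochondrially encoded and receptor segment genes stay unnamed. Promoters are RefSeq's on GRCm38.p6.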

Additional observations from a re-analysis of the deposited data

Results flagged for a closer look

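Of 2663 genes tested in both libraries, 2 went opposite ways between cycling and non-cycling cells by at least 1.5-fold. Wfdc17 had a log2 ratio of -2.37 in PyMT, at 1270.1 CPM in cycling and 6548 CPM in non-cycling cells, and of 1.45 in WT, at 50.8 and 18.6 CPM. In WT 104 and 34 of its 215 UMIs lay in 2 of the 293 cycling cells, and without them it stood at 18.2 CPM. WT B cells had 216 CPM. Against the PyMT non-cycling cells with Camp at 3% or more, which had 1207 CPM, the PyMT log2 ratio was 0.07. Sephs2, which encodes selenophosphate synthetase 2, had a log2 ratio of -0.68 in PyMT, at 80.7 CPM in cycling and 129 CPM in non-cycling cells, and of 0.78 in WT, at 76.8 and 44.6 CPM. It too turned in PyMT against cells with Camp at 3% or more, to 0.59, and against depth-matched non-cycling cells, to 0.53. With 1 library per group the difference between the libraries was not tested for either gene.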

How the results depend on the processing

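The cycling share was lower in PyMT than in WT in each of the 13 settings, though not among cells with Camp at 3% or more. It was 6.12% in PyMT with at least 2 cycle UMIs, 3.27% in PyMT and 6.79% in WT with at least 6, and 2.85% and 6.59% where cycle UMIs also had to reach 0.05% of the cell. It was 1.89% and 4.71% in cells thinned before gating, 6.86% and 11.8% in thinned cells with at least 1 cycle UMI, and 10.02% in WT without the monocyte gate. Counts of genes called followed the scaling and the minimum level, and fewer genes pass a higher minimum. For cycling over non-cycling cells in PyMT, a trimmed mean of M-values and the median of ratios each called 394 higher and 885 lower. At least 10 CPM gave 1372 higher, and at least 50 CPM 353 higher and 233 lower. Depth-matched non-cycling cells gave 156 lower and Camp-high ones 135; the cause was not tested. In WT, the trimmed mean called 474 higher and 877 lower, the median of ratios 467 and 892, a total without abundant genes 624 and 623, at least 10 CPM 1671 higher and at least 50 CPM 425 and 150. For PyMT over WT cycling cells, the trimmed mean called 457 higher and 180 lower, the median of ratios 468 and 175, at least 10 CPM 290 and 1147, at least 50 CPM 101 and 203, and thinning 288 higher.

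Values of 1.5-fold or more that turned, where the cause was not tested, were in PyMT cycling over depth-matched non-cycling cells Hbb-bs at 0.0469 and Sephs2 at 0.53. Over Camp-high non-cycling cells they were Cebpb at 0.0726, Hbb-bs at 0.00668, Igfbp6 at 0.31, Il1b at 0.36, Sephs2 at 0.59, Socs3 at 0.34, Srgn at 0.26 and Wfdc17 at 0.0739. In WT Srgn turned to 0.23 without the primary granule gate. For PyMT over WT cycling cells, it was the B cell marker median, at 0.41 without cells holding other lineages' markers. Of the shares and gene counts under the alternatives, 91 stayed within the main value's interval or within 1.5 times the main count and 37 did not. Settings with cycle UMIs over 0.05%, Camp-high cells, no monocyte gate and no cells of other lineages were chosen after the data were seen. No paired analysis was possible because each group is 1 library. Medians nearer 0 turned too: that of secondary granule genes in PyMT, 0.09, lay between -0.32 and -0.08 under the other scalings, and that of G2/M genes between the libraries, -0.08, was 0.20 with the trimmed mean. The ratios of Saa3 and Thbs1 rest on 0 and 3 UMIs in the class where they are low.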
